A study of Mus musculus with 2 samples.

Results

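The piRNA pathway and Tudor domain genes were followed through the germ cells of the mouse fetal ovary at E15.5, a day of embryonic development at which oocytes are in meiotic prophase. The members were the rows of both count matrices whose gene symbol was Ddx4, Mael, Tdrd1, Tdrd9, Rnf17, Mov10l1, Piwil2, Asz1, Gtsf1 or Stk31, and all 10 were found among 27998 gene rows. The study asked whether loss of the glucocorticoid receptor (GR, encoded by Nr3c1) changes the transcriptome of fetal germ cells. The KO library came from ovaries of 2 embryos with a constitutive deletion of GR, made with a Cre that acts throughout the embryo, and the WT library from ovaries of 4 embryos without it. The mesonephroi were removed, and cells sorted by the germ cell reporter Pou5f1-GFP, present in both genotypes, were put back with somatic cells at 60 to 40 for capture on the 10x droplet platform. The embryos of a genotype were pooled into 1 library, so there was no replicate and no test between genotypes. The KO and WT libraries also differed in depth and in cell recovery, and genotype and library cannot be told apart.

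PIWI proteins bind short germline RNAs, the piRNAs, and with them recognise and silence transposable elements. Tudor domain proteins bind methylated arginines on PIWI proteins and assemble them in nuage, the cytoplasmic granules of germ cells. In mice the pathway is known best from the male germ line, in which loss of most of these genes stops spermatogenesis, whereas the females are mostly fertile. Its genes are nevertheless transcribed in the fetal ovary while oocytes pass through meiotic prophase.

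Levels are given in CPM, the unique molecular identifiers (UMIs, each standing for a captured transcript) of a gene per 1000000 UMIs, summed over the cells of a library and cluster. Ratios are log2 ratios of these levels, followed in parentheses by an exact 95% interval that covers counting error only and not the variation between embryos. Levels are not compared between genes, since reads came from the 3′ ends and capture differs between transcripts. Of 9045 WT and 15502 KO cells kept under the limits of the study, 6794 and 10207 were germ-like, with a median of 17100.5 and 11318 UMIs per cell. Nr3c1 itself stood at 71.8 CPM in WT and 11.6 in KO germ-like cells, a log2 ratio of -2.63 (-2.71 to -2.55). These 3′ tags lie outside the deleted exon and do not read the deletion directly. The paper took the fall of this transcript in every cell type as a check of the deletion. It also checked the loss of GR by immunofluorescence, immunoblot and qRT-PCR. The libraries shared 75 cell barcodes, of which 27 passed the limits in both.

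Germ-like cells were clustered without the members, and clusters were named from stage markers only. The Rec8 cluster (454 WT and 815 KO cells, led by Phlda2 and Rec8) and the Stra8 cluster (423 and 876 cells) were meiotic-entry-like. The Rec8 cluster was taken as the first stage because it held the highest level of premeiotic markers, with 5 of 8 markers at 1.5-fold or more over other germ-like cells. The Rec8 cluster also passed 5 of 7 meiotic entry markers, and the Stra8 cluster passed 4 of 8 premeiotic and 4 of 7 meiotic entry markers. Both ties were given the meiotic entry name because its markers had the higher mean log2 fold. No cluster was named premeiotic. A cluster of recombination markers (1438 and 2070 cells) was recombination-initiating-prophase-like, with 6 of 8 markers including Prdm9, Mei1 and Mei4, and is called the recombination-like cluster. The Myom3 cluster (1896 and 2600 cells) was called advanced-prophase-like from Ooep, Lhx8 and Sohlh1, and was taken as the last stage. That name rests on the smallest number of markers allowed, 3 of 10, and the recombination-like cluster passed 3 of 10 too. The summed level of the 10 markers was lower in the Myom3 cluster (597 CPM in WT) than in any of the other 8 germ-like clusters, against 739 in the Rec8, 1225 in the Stra8 and 1253 in the recombination-like cluster. First and last stage are therefore names for the Rec8 and Myom3 clusters, and their order in time was not shown by these sums. The Sohlh1 cluster, with Figla, Nobox, Lhx8, Ooep, Ybx2 and Sohlh1, was also advanced-prophase-like but held only 72 WT and 20 KO cells. The other 3 clusters, led by Nacad, Nrg2 and Zfp808, could not be named, and a small one of 77 WT and 130 KO cells carried 18 somatic markers and was left out.

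Positions are those of GENCODE M21 on GRCm38. The annotation places Piwil2 (ENSMUSG00000033644) on the minus strand at chr14:70372477-70429383 and Gtsf1 (ENSMUSG00000022487) on the minus strand at chr15:103402405-103430470. It has Mov10l1 (ENSMUSG00000015365) on the plus strand at chr15:88982909-89055152 and Asz1 (ENSMUSG00000010796) on the minus strand at chr6:18050964-18109061. The annotation places Ddx4 (ENSMUSG00000021758) on the minus strand at chr13:112598333-112652475 and Mael (ENSMUSG00000040629) on the minus strand at chr1:166201201-166238747. It has Tdrd1 (ENSMUSG00000025081) on the plus strand at chr19:56826209-56870012 and Tdrd9 (ENSMUSG00000054003) on the plus strand at chr12:111971559-112068854. The annotation places Rnf17 (ENSMUSG00000000365) on the plus strand at chr14:56402581-56525032 and Stk31 (ENSMUSG00000023403) on the plus strand at chr6:49395604-49469501.

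Promoters of 250 bases before to 50 bases after the start were taken from RefSeq (GRCm38.p6) for 8 of the 10 members, all but Rnf17 and Piwil2, as 11 start sites. The sequences of Tdrd9 (chr12:111971309-111971608, plus strand) and Tdrd1 (chr19:56825959-56826258, plus strand) are shown because these genes differed most between clusters, Mael (chr1:166238695-166238994, minus strand) as a nuage gene with more than one kind of match, and Asz1 (chr6:18109012-18109311, minus strand) as a gene that was higher in the Myom3 cluster without a match. Each runs 5′ to 3′ on the strand of the gene. Capitals mark the letters CACGTG, the palindrome of the E-box, and TCCCGC or its reverse complement GCGGGA.
Tdrd9: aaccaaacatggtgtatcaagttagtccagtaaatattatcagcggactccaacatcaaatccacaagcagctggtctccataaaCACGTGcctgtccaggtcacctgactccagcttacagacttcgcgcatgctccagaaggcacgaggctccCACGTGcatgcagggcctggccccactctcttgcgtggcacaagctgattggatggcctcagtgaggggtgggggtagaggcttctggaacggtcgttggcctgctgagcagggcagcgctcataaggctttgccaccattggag
Tdrd1: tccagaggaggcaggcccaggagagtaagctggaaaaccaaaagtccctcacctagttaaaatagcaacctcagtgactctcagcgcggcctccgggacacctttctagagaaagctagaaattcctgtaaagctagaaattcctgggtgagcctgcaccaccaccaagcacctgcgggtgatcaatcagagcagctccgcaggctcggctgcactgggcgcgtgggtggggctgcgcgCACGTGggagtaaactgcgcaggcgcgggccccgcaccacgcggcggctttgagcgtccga
Mael: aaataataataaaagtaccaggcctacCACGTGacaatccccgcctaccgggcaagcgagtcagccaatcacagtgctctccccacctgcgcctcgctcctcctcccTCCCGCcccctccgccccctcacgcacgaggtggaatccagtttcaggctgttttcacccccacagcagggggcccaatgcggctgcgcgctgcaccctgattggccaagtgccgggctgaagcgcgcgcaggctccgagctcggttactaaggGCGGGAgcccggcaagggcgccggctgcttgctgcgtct
Asz1: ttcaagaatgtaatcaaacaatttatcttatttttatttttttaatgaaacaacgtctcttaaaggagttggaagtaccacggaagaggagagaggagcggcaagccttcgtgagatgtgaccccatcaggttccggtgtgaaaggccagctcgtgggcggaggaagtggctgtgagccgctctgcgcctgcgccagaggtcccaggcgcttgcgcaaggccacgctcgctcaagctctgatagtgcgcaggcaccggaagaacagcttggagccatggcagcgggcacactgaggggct
CACGTG was found in 8 of the 11 member promoters, of Ddx4, Mael, Mov10l1, Stk31, Tdrd1 and Tdrd9, against 7.15% of 32851 promoters of the same length. The 8 are not independent. The Stk31 promoters overlap and hold the same match, as do the Tdrd1 promoters with a match. The Tdrd9 promoter held it in 2 places. TCCCGC on either strand was found in the promoters of Ddx4 and Mael, against 19.98% of all promoters. The palindromic consensus GR element and the cyclic AMP element TGACGTCA were in none of the 11, and in 0.00913% and 1.79% of all promoters. The member promoters held a median of 20 CG pairs against 7 over all promoters, and CACGTG itself contains a CG pair. These matches describe letters only and were not compared with promoters of the same CG content.

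All 10 members were germ cell transcripts in this ovary. Against 25.9% of the 13947 genes with at least 100 UMIs, all 10 were at least 2-fold higher in germ-like than in somatic-like cells of the WT library, with a median log2 ratio of 3.01 where that over all genes was -0.00063. Somatic-like cells were not free of them. In WT granulosa-like cells the members stood at a median of 11.6% of their germ-like level (10.0 to 14.2%), and 8 germ cell markers such as Dazl and Sycp3 at 11.8% (10.7 to 14.1%). Members and markers were thus present in somatic-like cells at overlapping proportions. In theca-like cells the medians were 14.2% for the members and 15.51% for the markers, and in epithelia-like cells 9.85% and 9.52%. In the KO library the corresponding medians were higher in every class, at 16.6% and 16.7% in granulosa-like cells and 23.4% and 22.8% in theca-like cells. The proportion was not the same in every class. In the small WT classes, Stk31 stood at 10.8 CPM in 30 endothelia-like, 16.6 in 31 immune-like and 255 in 15 erythroid-like cells, and the germ cell marker Dazl at 29.7, 28.4 and 274. Nor were the UMIs spread evenly over cells, since the 1188 Stk31 UMIs of WT granulosa-like cells lay in 216 of 938 cells. The source of germ cell transcripts in somatic-like cells was not tested, nor was their part in the differences between libraries, although their proportion was higher in KO.

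**Figure D1:**
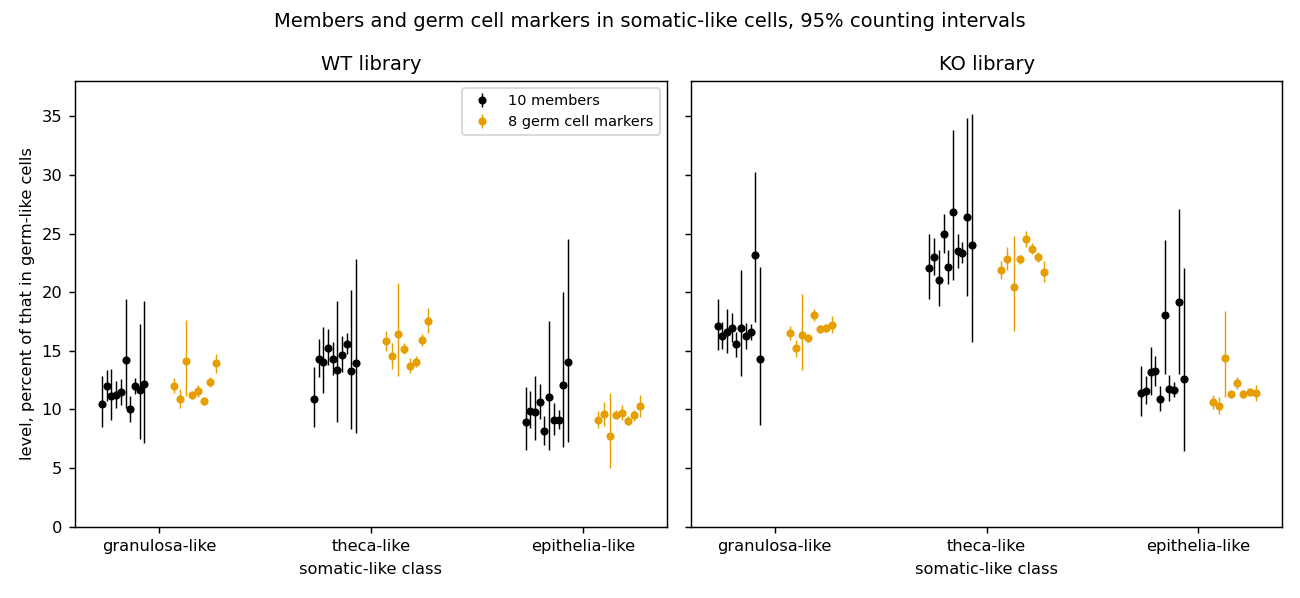
Level of the 10 members (black) and of 8 germ cell markers (orange) in 3 somatic-like classes, as a percent of the level in germ-like cells of the same library, with 95% counting intervals. Members and markers overlap in each class, and the medians of both are higher in the KO library than in the WT library.

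The share of germ-like cells with at least 1 UMI ranged from 13.9% for Tdrd9 to 99.7% for Stk31 in WT, and from 7.42% to 98.9% in the shallower KO library. In granulosa-like cells the same shares were 1.71% and 23.0% in WT at a median of 12662.5 UMIs, and 0.977% and 25.8% in KO at a median of 8499. With every cell thinned to 3000 UMIs, the Tdrd9 share was 2.77% of WT and 1.88% of KO germ-like cells and the Stk31 share 87.4% and 88.2%.

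The PIWI protein of this list is Piwil2 (MILI), which loads piRNAs in the cytoplasm and cleaves transposon transcripts. In WT, Piwil2 stood at 28.8 CPM in the Rec8 cluster, 22.2 in the Stra8 cluster, 14.7 in the recombination-like cluster and 29.0 in the Myom3 cluster. Of the named stages it was thus lowest in the recombination-like cluster, with a log2 ratio of last over first stage of 0.0097 (-0.19 to 0.21). In KO the levels were 31.4, 16.995, 13.99 and 20.1, lower in the Myom3 than in the Rec8 cluster, with a log2 ratio of -0.65 (-0.84 to -0.45). The Sohlh1 cluster stood far above these levels, at 89.0 in WT and 76.5 in KO.

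Gtsf1, a zinc finger cofactor that PIWI proteins need for cleavage, had a similar dip. Its WT level went from 87.1 CPM in the Rec8 cluster through 72.8 in the Stra8 cluster to 53.1 in the recombination-like cluster, and was 104 in the Myom3 cluster. In KO the 4 levels were 125, 119, 82.5 and 108. The last-over-first log2 ratio was positive in WT, 0.25 (0.14 to 0.37), and negative in KO, -0.21 (-0.30 to -0.12).

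Mov10l1, the helicase that binds piRNA precursor transcripts, and Asz1 (GASZ), a scaffold of nuage at mitochondria, act in piRNA biogenesis. Mov10l1 lay over the 7 larger clusters between 232 and 309 CPM in WT and between 233 and 313 in KO, with its lowest level in the Rec8 cluster of both. Asz1 was higher in the Myom3 cluster. It went in WT from 44.0 in the Rec8 cluster and 37.9 in the Stra8 cluster to 46.3 in the recombination-like and 108 in the Myom3 cluster, a log2 ratio of 1.30 (1.15 to 1.45). In KO the same levels were 60.9, 53.5, 59.6 and 105, a log2 ratio of 0.79 (0.67 to 0.91).

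Ddx4, the VASA helicase that marks nuage, and Mael, a nuage protein needed for transposon silencing, were present at every stage. Ddx4 lay between 194 and 276 CPM over the 7 larger clusters in WT and between 208 and 276 in KO. Mael was lowest in the Rec8 cluster, at 191 in WT and 192 in KO. It stood at 280.1 and 236 in the Myom3 cluster, log2 ratios of 0.55 (0.48 to 0.63) and 0.30 (0.23 to 0.37).

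The 4 Tudor domain members fell into 2 patterns. Rnf17 and Stk31, which join Tudor domains to a RING finger and a kinase domain, were highest in the Stra8 cluster. Stk31 stood there at 937 CPM in WT and 934 in KO, and in the Myom3 cluster at 666 and 676. Rnf17 went between the same clusters from 318 to 212 in WT and from 325 to 227 in KO. Both genes were lower in the last than in the Stra8 cluster of each library. In the Rec8 cluster Stk31 stood at 679 in WT and 672 in KO, and Rnf17 at 240 and 244. The last-over-first log2 ratios were thus small, at -0.029 in WT and 0.0079 in KO for Stk31. For Rnf17 they were -0.18 and -0.11.

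Tdrd1, the Tudor scaffold that binds Piwil2, and Tdrd9, a helicase with a Tudor domain, were highest in the last of the named stages. In WT, Tdrd9 stood at 3.58 CPM in the Rec8 cluster, 5.17 in the Stra8 cluster, 3.31 in the recombination-like cluster and 24.2 in the Myom3 cluster. In KO these levels were 7.88, 6.998, 4.01 and 12.5. Tdrd9 was thus lower at the first stage and higher at the last in WT than in KO, with last-over-first log2 ratios of 2.75 (2.26 to 3.29) in WT and 0.67 (0.34 to 1.02) in KO. Tdrd1 went from 10.2 in the Rec8 cluster to 25.3 in the Myom3 cluster of WT, a log2 ratio of 1.30 (1.00 to 1.62). In KO it went from 12.5 to 19.99, a log2 ratio of 0.68 (0.42 to 0.95). The Tdrd9 levels of the Rec8 cluster rest on 35 UMIs in WT and 96 in KO.

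**Figure D2:**
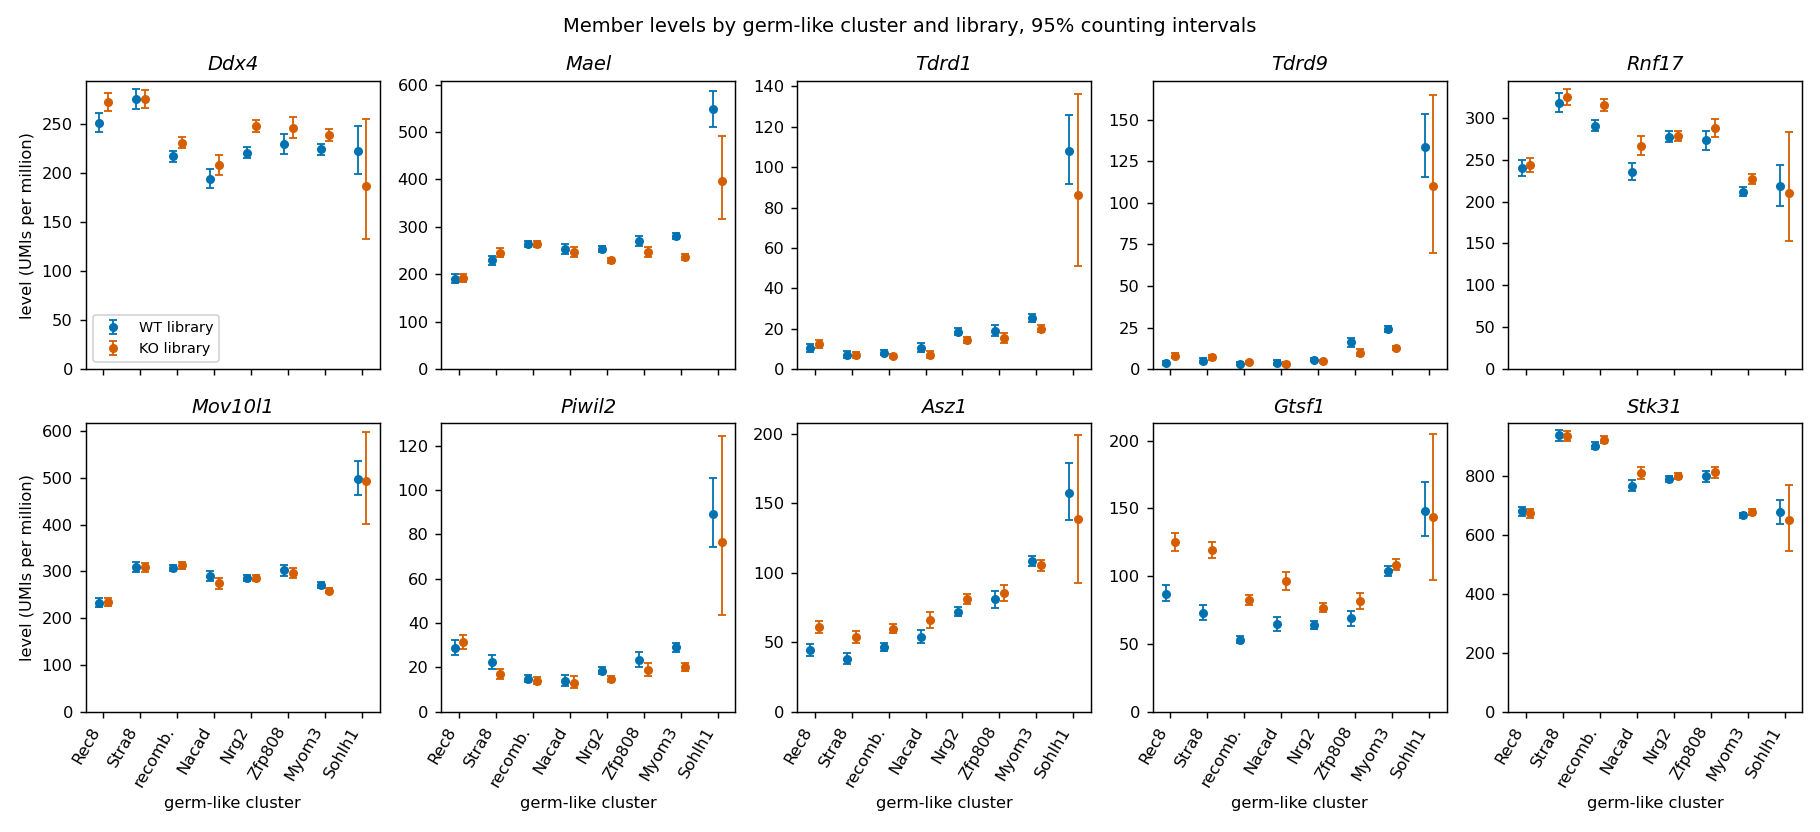
Level of each member in CPM (UMIs per 1000000, vertical axis from 0) in the 8 germ-like clusters of the WT (blue) and KO (orange) libraries, with 95% counting intervals, where the 3 unnamed clusters (Nacad, Nrg2 and Zfp808) have no place in an order of stages. Tdrd1, Tdrd9 and Piwil2 stand far higher in the small Sohlh1 cluster than elsewhere. Gtsf1 and Asz1 lie higher in KO than in WT in the Rec8, Stra8 and recombination-like clusters.

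In all, 3 of 10 members (Tdrd1, Tdrd9 and Asz1) were at least 2-fold higher in the last than in the first stage of WT and 0 were at least 2-fold lower, against 14.3% and 12.1% of 10486 genes. The median log2 ratio of the members was 0.24, and that of all genes 0.083. In KO, 0 of 10 passed 2-fold in either direction, against 12.1% of 10293 genes higher and 12.3% lower, and their median was 0.078 beside 0.024 over all genes. The 3 members past 2-fold in WT were higher in the last stage of KO too, below that limit. Their log2 ratios there were 0.68 for Tdrd1, 0.67 for Tdrd9 and 0.79 for Asz1. The last-over-first log2 ratio was smaller in KO than in WT for 6 members and larger for 0, by more than an approximate 95% counting interval of the difference, against 14.2% and 11% of 10178 genes. The difference, KO minus WT, was -2.08 (-2.67 to -1.49) for Tdrd9, -0.66 (-0.93 to -0.38) for Piwil2, -0.62 (-1.02 to -0.22) for Tdrd1, -0.51 (-0.69 to -0.32) for Asz1, -0.46 (-0.60 to -0.32) for Gtsf1 and -0.26 (-0.36 to -0.16) for Mael. For Ddx4, Rnf17, Mov10l1 and Stk31 that interval included 0. These counts and differences depended on how stages were drawn. In 4 equal bins of a score of stage markers in place of clusters, 0 of 10 members were 2-fold apart between the first and last bin, and the last-over-first log2 ratio was below 0 for Asz1 (-0.13) and Gtsf1 (-0.082) in WT and for Tdrd1 (-0.55) and Tdrd9 (-0.77) in KO.

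**Figure D3:**
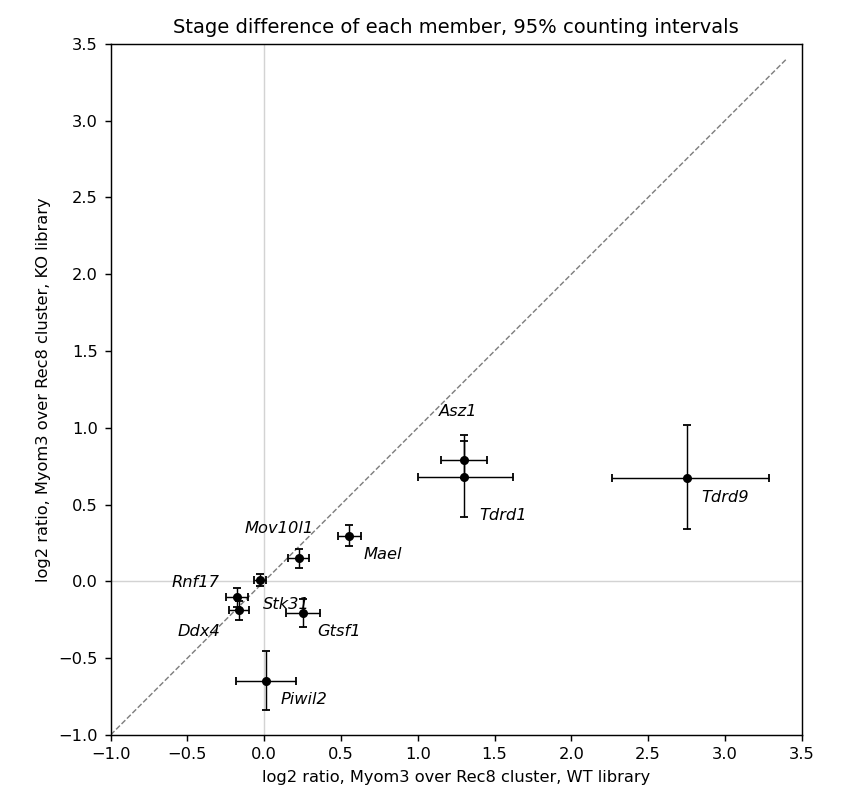
Log2 ratio of the Myom3 over the Rec8 cluster for each member in the WT (horizontal axis) and KO (vertical axis) libraries, with 95% counting intervals and the line of equality dashed. Tdrd9 lies farthest below the line, at 2.75 in WT and 0.67 in KO, and Tdrd1, Asz1, Piwil2, Gtsf1 and Mael lie below it too.

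The Sohlh1 cluster had the highest levels of Tdrd9, Tdrd1 and Piwil2 in both libraries, and also of Mael, Mov10l1, Asz1 and Gtsf1. Tdrd9 stood there at 133 CPM in WT and 110.0 in KO, log2 ratios over the Myom3 cluster of 2.47 (2.23 to 2.70) and 3.13 (2.45 to 3.74). Of WT cells in this cluster 90.3% held a Tdrd9 UMI, against 24.4% in the Myom3 cluster at medians of 20996.5 and 14333 UMIs per cell. Tdrd1 followed at 108 and 86.1, with log2 ratios of 2.09 (1.84 to 2.34) and 2.11 (1.34 to 2.78). Piwil2 was higher by 1.62 (1.34 to 1.89) and 1.93 (1.11 to 2.64). These 3 members passed 2-fold in WT and 0 were 2-fold lower, against 7.22% of 9942 genes higher and 3.68% lower. Mael (0.97, 0.86 to 1.07), Mov10l1 (0.88, 0.77 to 0.99), Asz1 (0.54, 0.34 to 0.73) and Gtsf1 (0.51, 0.31 to 0.71) were higher by less than 2-fold in WT. Ddx4, Rnf17 and Stk31 had intervals that included 0, with ratios of -0.012, 0.044 and 0.023. The cluster made up 1.06% (0.830 to 1.33) of WT and 0.196% (0.120 to 0.302) of KO germ-like cells, and each KO value here rests on 20 cells. Somatic markers were raised in it, with 3 past the marker limits and a sum over 47 markers of 247 CPM in WT and 244 in KO, against 157 and 207 in the Myom3 cluster, and their part in the member levels was not tested.

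Genotypes were compared over all germ-like cells first. At the size limit of the study, a difference of 0.25 in the natural log of UMIs per 10000 plus 1, 0 of 10 members differed, against 0.174% of 13798 genes. Tdrd9, Tdrd1 and Piwil2 stood too low in WT for even a complete loss to reach this limit, so it could not show a fall in them. On the log2 scale 1 member (Gtsf1) was higher in KO by 0.25 or more, against 8.58% of genes, and 3 (Tdrd1, Tdrd9 and Piwil2) lower, against 19.3%. The median log2 ratio of the members was 0.0040 and that of all genes -0.054. Tdrd9 stood at 11.7 CPM in WT and 7.18 in KO, a log2 ratio of -0.70 (-0.83 to -0.58). Tdrd1 was at 16.9 and 12.6 (-0.43, -0.52 to -0.33), and Piwil2 at 22.2 and 17.9 (-0.31, -0.40 to -0.23). Gtsf1 was higher in KO, at 95.8 against 75.1 (0.35, 0.31 to 0.39). The other 6 members lay closer to 0, from -0.12 for Mael to 0.11 for Ddx4.

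Within stages the direction depended on the stage. Tdrd9 was higher in KO in the Rec8 cluster, 1.14 (0.56 to 1.74), and lower in the Myom3 cluster, -0.95 (-1.14 to -0.75). With every cell thinned to 3000 UMIs these ratios were 0.92 and -0.60. In the Stra8 and recombination-like clusters its intervals included 0, with ratios of 0.44 and 0.28. Gtsf1 was higher in KO in the Rec8 (0.52, 0.40 to 0.64), Stra8 (0.71, 0.58 to 0.84) and recombination-like (0.64, 0.54 to 0.73) clusters, and was 0.061 (-0.014 to 0.14) in the Myom3 cluster. Asz1 in the same clusters was 0.47 (0.29 to 0.64), 0.50 (0.31 to 0.69), 0.36 (0.25 to 0.48) and then -0.040 (-0.11 to 0.034). Piwil2 was lower in KO in the Stra8 (-0.38, -0.66 to -0.10) and Myom3 (-0.53, -0.69 to -0.37) clusters, and Tdrd1 in the recombination-like (-0.33, -0.63 to -0.031) and Myom3 (-0.34, -0.50 to -0.17) clusters. In the Rec8 cluster Tdrd1 was 0.28 (-0.089 to 0.66), and 0.83 with cells thinned to 3000 UMIs, and in the Stra8 cluster 0.030 (-0.45 to 0.51). Mael was lower in KO in the Myom3 cluster, -0.25 (-0.30 to -0.20), and slightly higher in the Stra8 cluster, 0.10 (0.018 to 0.18). Ddx4, Rnf17, Mov10l1 and Stk31 ranged over the 4 stages only from -0.068 to 0.12.

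**Figure D4:**
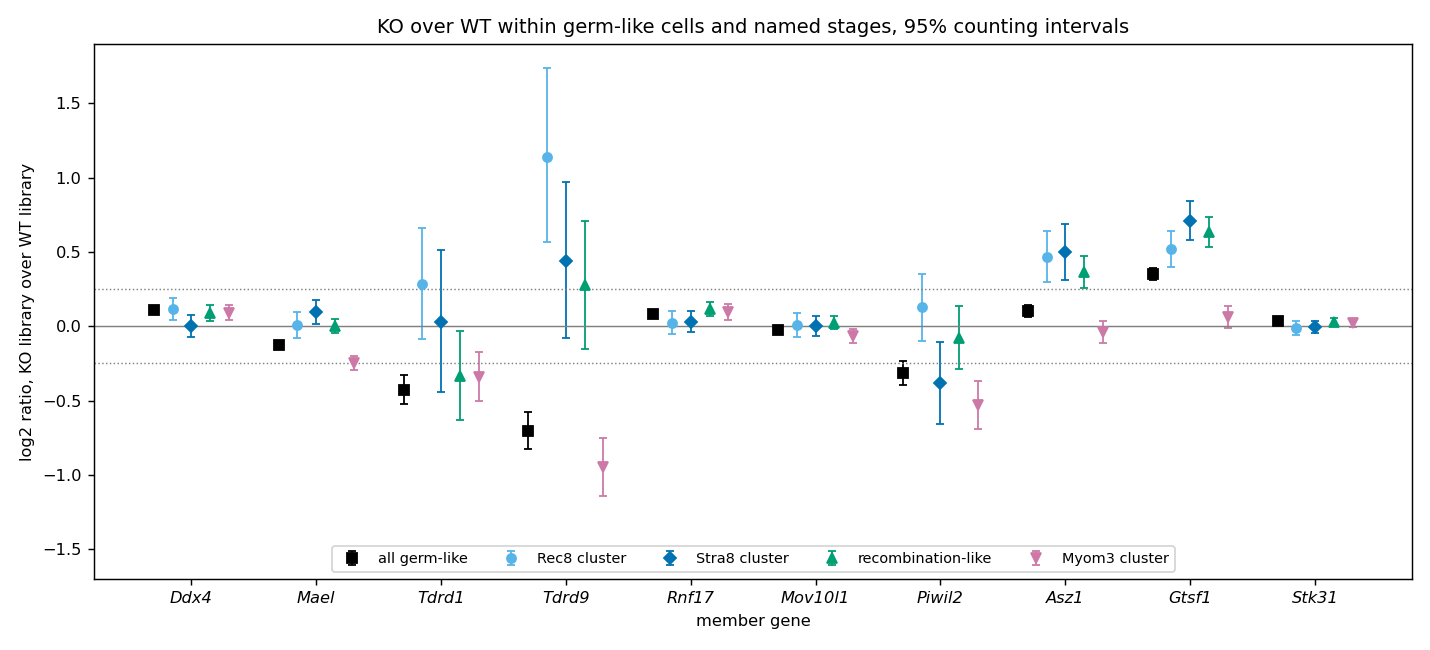
Log2 ratio of the KO over the WT library for each member over all germ-like cells and in 4 named stages, with 95% counting intervals, where dotted lines mark 0.25 in each direction. Tdrd9 is above 0 in the Rec8 cluster and below 0 in the Myom3 cluster, and Ddx4, Rnf17, Mov10l1 and Stk31 lie close to 0 throughout.

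By stage, 4 members were higher by 0.25 or more and 0 lower in the Rec8 cluster, against 9% and 12.6% of 9064 genes. In the Stra8 cluster 3 were higher and 1 lower, against 9.3% and 17.3% of 8272 genes. In the recombination-like cluster 3 were higher and 1 lower, against 8.06% and 15.4% of 9957 genes. In the Myom3 cluster 0 were higher and 3 lower, against 8.14% and 20% of 10913 genes. Mael in the Myom3 cluster lay just inside the limit, at -0.249. No member passed the limit in the same direction in all 4 stages.

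Markers of stage also differed between the libraries. In the Myom3 cluster, by the log2 ratio of KO over WT, Sohlh1 (-1.86, -2.14 to -1.60), Lhx8 (-0.60, -0.83 to -0.38) and Ooep (-0.49, -0.85 to -0.14), the markers that gave the cluster its name, were lower in KO, whereas M1ap (0.59, 0.53 to 0.66) and Meiob (0.31, 0.24 to 0.37) were higher. Of the 10 advanced markers, 7 were lower in KO there and 8 in the Rec8 cluster, but their summed level was higher in KO in both, at 651 CPM against 597 in WT in the Myom3 cluster and 791 against 739 in the Rec8 cluster. The sums of the other stage markers were higher in KO too in the Myom3 cluster, at 225 against 141 for the 7 meiotic entry markers and 539.9 against 460.2 for the 8 recombination markers. Sohlh1, Lhx8 and Ooep had ratios in the Rec8 cluster whose intervals included 0, at -0.14, -0.27 and -0.13. The 47 somatic markers together ranged from 145 to 165 CPM over the 4 stages in WT and from 190.2 to 208 in KO. The part of stage composition and of transcripts from other cells in the member differences was not tested.

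Of a wider list of 27 piRNA pathway genes, 25 were in the matrices and 18 had at least 100 UMIs over the first and last stage of WT. Of these, 5 were at least 2-fold higher and 1 lower in the last stage, against 14.3% and 12.1% of all genes, with a median of 0.082 against 0.083. Morc1, a GHKL ATPase of transposon silencing, had the highest ratio (1.81, 1.13 to 2.58). It was followed by Henmt1, the methyltransferase of piRNA 3′ ends (1.67, 1.07 to 2.32), and the PIWI gene Piwil1 (1.66, 0.72 to 2.77). The lowest ratios were those of Pld6, the mitochondrial nuclease also called Zucchini (-1.15, -1.68 to -0.62), Tex19.1 (-0.74, -0.84 to -0.64) and the co-chaperone Fkbp6 (-0.18, -0.22 to -0.13). Between genotypes, 1 of 22 was higher in KO by 0.25 or more and 4 lower in germ-like cells, against 8.58% and 19.3% of all genes. The largest ratios were those of Tdrd12 (0.26, 0.18 to 0.34) and Piwil4 (0.20, -0.24 to 0.65), and the smallest those of Piwil1 (-0.44, -0.76 to -0.12) and Tdrd6 (-0.41, -0.998 to 0.18).

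The other 21 Tudor domain genes, which act mostly in chromatin and splicing, all had at least 100 UMIs over both WT stages. None was 2-fold higher in the last stage and 3 were 2-fold lower, namely the Polycomb-like gene Phf19 (-4.66, -5.45 to -3.95), the DNA damage protein gene Trp53bp1 (-1.14, -1.34 to -0.94) and the splicing factor gene Smndc1 (-1.02, -1.12 to -0.92). The shares of all genes were 14.3% and 12.1%. The highest ratios were those of Zgpat (0.85, 0.66 to 1.04), Arid4a (0.58, 0.34 to 0.82) and Tdrd3 (0.44, 0.060 to 0.83). At least 2-fold higher in germ-like than in somatic-like cells of WT were 4 of these 21 and 17 of 20 wider piRNA genes, against 25.9% of all genes. Between genotypes their extremes in germ-like cells were Smndc1 (0.16, 0.12 to 0.19) and Phf19 (0.12, -0.15 to 0.40) above, and Phf1 (-0.47, -0.68 to -0.26) and Kdm4a (-0.26, -0.54 to 0.0052) below.

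Genes with the most similar profile were sought among 9100 other genes over 14 points, 7 clusters in each of 2 libraries, by the root mean square distance of centred log2 levels. The points of a library share its depth. For Rnf17 the nearest gene was Stk31, at 0.0643, followed by Eif4g2 and Snrnp35. For Stk31 the nearest was Tdrkh, a Tudor protein gene of piRNA trimming, at 0.0617, followed by Ddx42 and Rnf17. Tdrd1 lay nearest to Fbxo3 (0.138), Tdrd5 (0.144) and Gfra4 (0.157). The nearest genes of Tdrd9 lay farther off, namely Fbxw5, Fuk and Gm595 at 0.438 to 0.451. The nearest genes of Mael were Dhx40, Rab22a and Gkap1, and those of Mov10l1 Mrpl37, Dnajc21 and Tmem175, all within 0.0920. Piwil2 lay nearest to Lgmn, Atp6ap1 and Xrcc6bp1, Asz1 to Cetn2, Acp1 and Polr3d, and Gtsf1 to Gm1673, Sap18 and Reep5.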

How the data were processed

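UMI counts per gene and cell barcode, not normalized, were deposited by the authors, who made them with Cell Ranger (3.0.2 per the file headers). The submitters' processing notes name mm10 and Seurat 3.2.3, and the gene annotation is not given in the sources used here. Cells were kept under the limits of the study (WT, 1500 to 6500 genes and 5500 to 40000 UMIs; KO, 1200 to 5500 genes and 3000 to 30000 UMIs; under 10% mitochondrial UMIs in both). Total UMIs were 168483330 in WT and 186117981 in KO.

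Cells were clustered with scanpy 1.11.5 (2000 variable genes, 30 components, 20 neighbours, Leiden resolution 0.5, leidenalg 0.10.2), leaving out the members, the wider lists and Nr3c1. Germ-like cells were clustered again after regression of depth, gene number and mitochondrial and ribosomal shares within each library. This within-library step, the limit of 1.5-fold in 5% of cells for stage markers and the choice of the Rec8 cluster as first stage were made after clusters had been seen. Classes needed 3 markers, and doublets were left in and removed as an alternative (Scrublet, 8% expected).

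UMIs were summed per library and cluster, so 1 sample per group allowed no test. Intervals are exact Poisson or binomial ones, covering counting error only, computed with scipy 1.17.1. They were tested on simulated Poisson counts, which hold no variation between cells, embryos or libraries, so that test checks the computation only. Genes entered the backgrounds with at least 100 UMIs over both sides. The members and lists were chosen with earlier results of these data known. The genes named were the 10 members, the 3 highest and lowest stage ratios in WT and the 2 highest and lowest genotype ratios of each wider list, and the 3 nearest profiles of each member, except that those of Ddx4 are not reported here. Tdrd5 is named under the last. Gene IDs of all 10 members matched GENCODE M21 (GRCm38), no member shared an exon with another gene, and no transcript of another gene aligned to a member at 95% identity over 200 bases.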

Additional observations from a re-analysis of the deposited data

Results flagged for a closer look

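The direction of 3 members differed between stages or libraries, each value having a counting interval that excluded 0. With 1 library per group, the differences were not tested across samples. Tdrd9 had a log2 ratio of KO over WT of 1.14 in the Rec8 cluster and -0.95 in the Myom3 cluster. Mael had 0.10 in the Stra8 cluster and -0.25 in the Myom3 cluster. Gtsf1 had a log2 ratio of last over first stage of 0.25 in WT and -0.21 in KO. With the Sohlh1 cluster as last stage these were 0.77 and 0.20, both positive.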

How the results depend on the processing

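The counts of members depended most on how stages were drawn. In 4 bins of a marker score, 0 members (instead of 3) were 2-fold apart in WT, and 2 (instead of 0) passed 0.25 in the same direction in every stage. In KO, 4 members (instead of 0) passed 1.5-fold, and 1 passed 2-fold at Leiden resolution 1.0 and with clusters of one name pooled. With the Sohlh1 cluster as last stage, 6 members passed 2-fold in WT and 6 in KO. Stages weighted equally moved the median log2 ratio of KO over WT from 0.0040 to 0.038.

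Reversals of sign were counted only for ratios past 0.25 in either direction. Last-over-first log2 ratios reversed in the score bins for Tdrd1 (-0.55) and Tdrd9 (-0.77) in KO and for Asz1 in WT (-0.13) and KO (-0.041). In WT they did so too for Gtsf1 (-0.082), Piwil1 (-0.85), Pld6 (0.53), Arid4a (-0.38) and Tdrd3 (-0.41). With the Sohlh1 cluster as last stage they did so for Piwil2 in KO (1.28) and Pld6 (1.92) and Tex19.1 (0.035) in WT, with clusters of one name pooled for Tex19.1 (0.046), and without cells holding markers of another class for Arid4a (-0.046). Tdrd6, KO over WT, was 0.18 without such cells and 0.33 after thinning. Smaller ratios changed sign too. Among them, last over first, were Gtsf1 in KO (0.20) with the Sohlh1 cluster as last stage and Rnf17 in the score bins (0.0998 in WT and 0.092 in KO). The cause was not tested. Of the values of single genes under an alternative, 532 moved by less than their counting interval and 150 moved further without a reversal. The other 16 reversed, those printed above as past 0.25. Tdrd9, KO over WT, ranged from 0.92 to 1.57 in the Rec8 and from -0.96 to -0.60 in the Myom3 cluster. Without the minimum of 100 UMIs, 14.9% of genes were higher and 22.4% lower by 0.25 in KO germ-like cells.

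The pooled, Sohlh1 and library-merged stages were chosen after seeing the data. No paired analysis was possible because each genotype has 1 library. Low UMI counts limit Tdrd9 and Tdrd1, and the shallower KO library limits cell shares.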
